A study of Mus musculus with 27 samples.

Results

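The collagen genes were taken as every entry whose symbol reads Col, a number, the letter a and a number, which found 44 genes among the 55852 entries of the table of injured muscle and the same number among the 55677 entries of the table with uninjured muscle. Levels were given as TPM (length-corrected transcript units), which sum to the same total in every library and allow levels of different genes to be compared. The 50 most abundant genes held 25.4% to 61.4% of that total, so differences between libraries depend in part on the scaling, and other scalings are given where they matter. A gene entered the tests when it reached 1 TPM in at least 3 libraries of a table, and 34 of the 15718 genes tested in injured muscle and 28 of the 13041 tested against uninjured muscle were collagen genes. By class the tested members in injured muscle were 11 of 11 fibrillar genes, 5 of 8 basement membrane genes, 6 of 9 FACIT genes (fibril-associated collagens with interrupted triple helices) and 12 of 16 others. Col9a2 sat just inside the filter, with 3 of the 24 injured libraries at 1 TPM or more. Col9a3, Col19a1, Col17a1 and Col10a1 sat just outside it with 1 library each, and Col4a3, Col4a4, Col4a6, Col9a1, Col6a4 and Col25a1 stayed under 1 TPM in every injured library.

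Collagens are secreted proteins whose chains wind around each other into a long helix, and they make up most of the connective tissue that holds muscle fibres together. Fibrillar collagens build the cables of the interstitial matrix, basement membrane collagens form the sheet that wraps each muscle fibre and capillary, and FACIT collagens sit on the surface of fibrils. After muscle injury, fibroblast-like cells of the interstitium, the fibro-adipogenic progenitors, are known to lay down a transient matrix that is later cleared as fibres regrow.

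The study injected cardiotoxin (CTX), a snake venom toxin that destroys muscle fibres, into muscle of male wild-type (WT) C57BL/6J mice and of mice with a global knockout (KO) of Gsdme, which encodes the pore-forming protein gasdermin E. Both genotypes were sampled 1 day after the injection (D1) and again at 4, 7 and 14 days (D4 to D14), and uninjured WT muscle served as control, which made 9 groups of 3 libraries. The deposited design names the gastrocnemius for the WT and KO time course and thigh muscle for the comparison with control, the sample titles say KO where the genotype field says knockdown, and the age of the mice was not given in the sources used here. Each group is described as a biological triplicate. By the study's methods the control was the uninjured muscle of the opposite leg, taken 1 day after injury, and was sequenced in a first batch with injured muscle, while the WT and KO time course made up a second batch. No label says which control and D1 libraries share a mouse. The same 3 WT D1 libraries stand in both tables, with correlations of 0.997 between their same-numbered columns, and the labels do not say in which batch they were run, so batch and injury (against control) or batch and genotype (on D1) cannot be told apart.

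The 27 libraries held 11785 to 14704 genes at 1 TPM or more, and the correlation of replicates on log2(TPM + 1) ran from 0.913 to 0.987. The read depth behind the values is unknown. The target gene Gsdme was measured at 2.76, 4.85 and 3.16 TPM in the WT D1 libraries and at 1.53, 1.28 and 2.17 TPM in the libraries labelled KO D1. On D4 it was at 3.02, 2.67 and 2.63 TPM in WT and 1.36, 1 and 1.64 TPM in KO, and on D7 at 2.51, 1.8 and 2.15 TPM in WT and 1.37, 1.01 and 0.95 TPM in KO. On D14 the groups overlapped, with 1.46, 2.21 and 2.26 TPM in WT and 1.96, 1.77 and 1.27 TPM in KO. Averaged over days Gsdme was lower in KO by -0.55 ± 0.09 on the log2(TPM + 1) scale (SE), which missed the threshold (adjusted p = 0.0664, limma), so "KO" below means the libraries labelled KO. The study reported genotyping of these mice and, by immunoblot, loss of the GSDME protein in their skeletal muscle. RNA levels do not measure the protein. Library KO D4 replicate 2 stood apart, with summed macrophage markers of 67.5 TPM against 414 and 381 TPM in the other KO D4 libraries. Most results that rest on KO D4 are given with and without it.

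The 250 bases upstream of the RefSeq start are shown for Col1a2, Col3a1 and Col5a1, fibrillar genes that rose together on D4 and that had an entry in the RefSeq promoter table (GRCm38.p6), to which 27 of the 34 tested genes were matched (29 entries). Capitals mark the motifs searched on both strands, which were CCAAT, then TATAAA and finally GGGCGG; on the minus strand the last of these reads CCGCCC. The sequences come from chr6:4505368-4505617, chr1:45311288-45311537 and chr2:27886175-27886424, all on the plus strand.
Col1a2: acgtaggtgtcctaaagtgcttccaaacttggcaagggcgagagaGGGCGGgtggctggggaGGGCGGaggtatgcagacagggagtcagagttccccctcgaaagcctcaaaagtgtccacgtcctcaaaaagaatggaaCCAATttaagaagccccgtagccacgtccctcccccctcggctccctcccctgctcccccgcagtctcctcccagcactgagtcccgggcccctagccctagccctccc
Col3a1: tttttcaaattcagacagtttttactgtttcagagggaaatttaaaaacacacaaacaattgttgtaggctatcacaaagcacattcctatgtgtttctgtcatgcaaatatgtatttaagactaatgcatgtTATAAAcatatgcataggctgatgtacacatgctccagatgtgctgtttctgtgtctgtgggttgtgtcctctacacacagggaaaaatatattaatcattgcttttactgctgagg
Col5a1: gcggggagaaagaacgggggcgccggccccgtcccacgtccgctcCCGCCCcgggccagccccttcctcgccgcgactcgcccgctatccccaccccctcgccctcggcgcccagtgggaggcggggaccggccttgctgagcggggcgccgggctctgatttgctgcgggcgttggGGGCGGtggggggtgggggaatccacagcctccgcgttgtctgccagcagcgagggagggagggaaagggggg
The Col1a2 window held a CCAAT at -109 to -105 from the start and GGGCGG at -205 to -200 and -188 to -183. The Col3a1 window held only a TATAAA at -117 to -112, and the Col5a1 window held GGGCGG at -73 to -68 and, on the minus strand, at -205 to -200. Over the 29 collagen windows, CCAAT was present in 9 (31.0% against 33.8% of all 32851 windows of this length), TATAAA in 3 (10.3% against 12.4%) and GGGCGG in 19 (65.5% against 32.7%). A match is only an occurrence of these letters in the window. The genes Col12a1, Col14a1, Col1a1, Col22a1, Col26a1, Col2a1 and Col5a2 had no entry.

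Several collagen genes are neighbours. Col4a1 (minus strand, chr8:11198423-11312826) and Col4a2 (plus strand, chr8:11312805-11449287) start head to head and overlap by 22 bases in the GENCODE M21 annotation (GRCm38, the same assembly as mm10, which the submitters' processing notes name). Col3a1 (chr1:45311538-45349706) and Col5a2 (chr1:45374321-45503282) face each other tail to tail with 24614 bases between them. Whether counting used strand was not given in the sources used here, so reads in the 22 shared bases cannot be assigned, while these genes span 6615 and 6450 bases of transcript in the deposited length column.

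The first question was how collagen expression followed injury in WT muscle. The summed TPM of all collagen genes went from 1237 ± 246 in control muscle and 2077 ± 719 on D1 (SD, n = 3) to 11099 ± 1086 on D4, and was back at 1710 ± 820 on D14 after 7042 ± 1548 on D7. The D4 libraries lay above every other WT library, and the D14 libraries overlapped those of D1. The fibrillar class carried most of this sum, with 80.2% ± 0.574 of collagen TPM on D4 and 72.0% ± 2.32 on D7, against 62.9% ± 3.32 in control, 65.7% ± 3.64 on D1 and 64.4% ± 8.92 on D14. Col1a1, Col1a2 and Col3a1 alone held 72.1% ± 0.139 of collagen TPM on D4 against 58.9% ± 3.58 on D1. The basement membrane class moved the other way as a share, from 16.1% ± 2.02 on D1 to 4.31% ± 0.290 on D4 and back to 16.6% ± 6.41 on D14, while its summed level went from 328 ± 82.1 TPM on D1 to 479 ± 64.3 on D4 and 641 ± 58.7 on D7. In bulk tissue, more cells of a type and more RNA per cell cannot be told apart. The summed level of the fibro-adipogenic progenitor markers ran from 814 to 1180 TPM in the D1 libraries, 1121 to 1190 TPM in those of D4, 1411 to 1482 TPM in those of D7 and 667 to 1384 TPM in those of D14, and its part in the collagen levels was not tested. The members of this sum did not move together. In WT, Dcn went from 351, 484 and 404 TPM on D1 to 810, 799 and 799 TPM on D7. Over the same days Ly6a went from 379, 533 and 286 TPM to 239, 224 and 241 TPM.

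**Figure D1:**
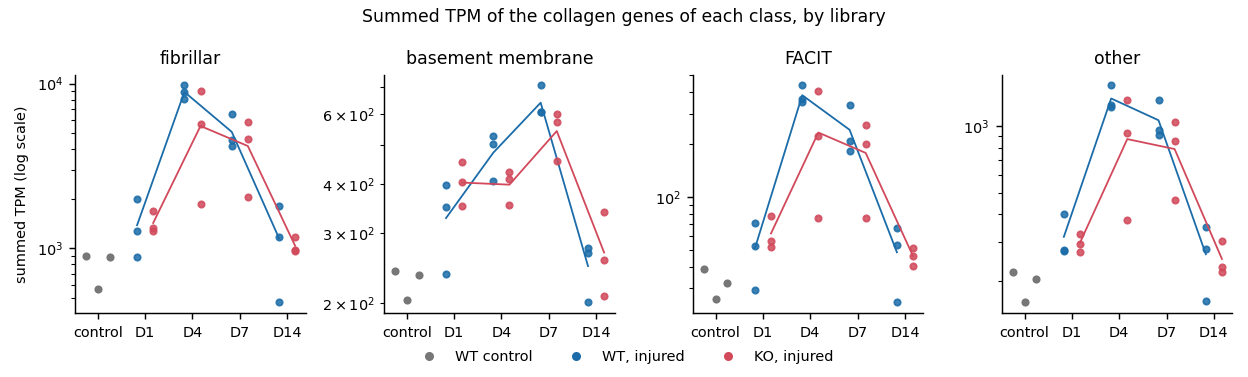
Summed TPM (log axis) of the collagen genes of each class in every library, by day after injury, in WT control (grey), WT injured (blue) and KO injured (red) muscle; lines join the means of 3 libraries. The fibrillar, FACIT and other classes are highest on D4 in WT (for the other class not with the 50 most abundant genes removed, at 1901 TPM on D4 and 1921 on D7), while the basement membrane class is highest on D7, at a mean of 641 TPM in WT.

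From D1 to D4 in WT, 22 of 34 collagen genes rose and 0 fell (limma, adjusted p under 0.05), where 14.6% of all tested genes rose and 5.27% fell. The median difference was 1.53 on the log2(TPM + 1) scale for the collagen genes and 0.17 for all genes. By class, 8 of 11 fibrillar genes rose (median 2.17), 3 of 5 basement membrane genes (median 0.90), 3 of 6 FACIT genes (median 1.66) and 8 of 12 others (median 1.71). Leaving out each library in turn gave 20 to 23 rises, and 21 without WT D1 replicate 3, whose summed macrophage markers were 191 TPM against 438 and 710 TPM in the other WT D1 libraries.

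Among the fibrillar genes, Col1a1, one chain of type I collagen (the main collagen of tendon and scar), was at 297, 550 and 194 TPM in the WT D1 libraries and at 2787, 2338 and 3039 TPM in the WT D4 libraries. All D4 libraries lay above all D1 libraries, the ratio of the means was 7.85, and the log2 difference was 3.09 ± 0.55 (SE, adjusted p = 0.000787, limma). Col3a1, the single chain of type III collagen found in young granulation tissue, was at 518, 652 and 389 TPM on D1 and 3053, 3126 and 3331 TPM on D4, a difference of 2.64 ± 0.51 (adjusted p = 0.00133). The type V chains, which set the diameter of type I fibrils, moved with them, with differences of 3.05 ± 0.52 for Col5a1, 2.68 ± 0.58 for Col5a2 and 2.17 ± 0.39 for Col5a3. Col1a2 (2.61 ± 0.50), Col27a1 (1.50 ± 0.37) and Col11a1 (1.42 ± 0.45) also rose. The fibrillar genes not called were Col24a1 (0.88, adjusted p = 0.0588), Col11a2 (0.78, adjusted p = 0.192) and Col2a1 (0.32, adjusted p = 0.453), the last being the cartilage collagen, at 0.18 to 2.41 TPM over the injured libraries.

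**Figure D2:**
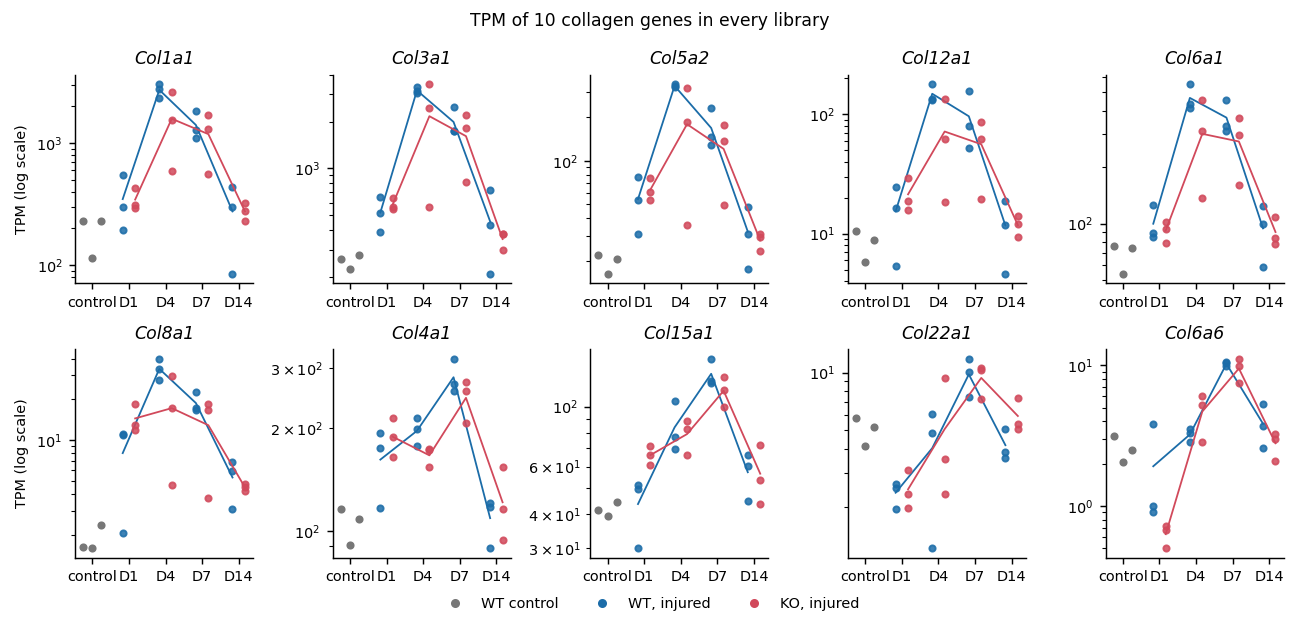
TPM (log axis, own range in each panel) of 10 collagen genes in every library by day after injury, in WT control (grey), WT injured (blue) and KO injured (red) muscle; lines join the means of 3 libraries. Col1a1, Col3a1, Col5a2, Col12a1, Col6a1 and Col8a1 are highest on D4 in WT, and Col4a1, Col15a1, Col22a1 and Col6a6 on D7.

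Col12a1, a FACIT collagen that decorates type I fibrils, had the largest difference of any collagen gene in this step. It was at 16.4, 24.4 and 5.33 TPM on D1 and at 133, 133 and 179 TPM on D4, a ratio of the means of 9.67 and a log2 difference of 3.39 ± 0.65 (adjusted p = 0.00136, limma). Its relative Col14a1 (2.97 ± 0.51) and Col16a1 (2.83 ± 0.56) rose as well. The other tested FACIT genes did not pass, with differences of 0.43 for Col22a1, which marks the junction of muscle with tendon, 0.27 for Col20a1 and 0.49 for Col9a2.

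Type VI collagen forms beaded filaments next to the muscle basement membrane and is part of the niche of muscle stem cells. Col6a1 was at 89.4, 126 and 84.6 TPM on D1 and 433, 414 and 554 TPM on D4, with a difference of 2.22 ± 0.36 (adjusted p = 0.000387, limma). Col6a2 rose by 2.19 ± 0.35 and Col6a3 by 1.85 ± 0.43, whereas the alternative chains Col6a6 (0.67, adjusted p = 0.117) and Col6a5 (0.27, adjusted p = 0.534) did not pass. The chains of the network-forming type VIII collagen rose, Col8a2 by 2.27 ± 0.49 and Col8a1 by 2.17 ± 0.57, of which the second fell short without WT D1 replicate 3 (1.51). Among the rest of this class the membrane-spanning Col23a1 had the lowest adjusted p of any collagen gene (1.93 ± 0.26, adjusted p = 0.000114), and Col26a1 (1.57 ± 0.21) and Col13a1 (1.43 ± 0.25), a membrane collagen of the neuromuscular junction, rose too.

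The basement membrane genes were split. Col18a1, a proteoglycan-like collagen whose end fragment is endostatin, rose by 1.59 ± 0.35 (adjusted p = 0.00327), Col15a1, its relative, by 0.94 ± 0.22 (adjusted p = 0.00479) and the minor chain Col4a5 by 0.90 ± 0.27 (adjusted p = 0.0232). The main type IV chains did not pass. Col4a1 was at 176, 193 and 117 TPM on D1 and 199, 177 and 214 TPM on D4, with overlapping groups and a difference of 0.31 ± 0.20 (adjusted p = 0.299), and Col4a2 differed by 0.37 ± 0.20 (adjusted p = 0.209).

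From D4 to D7, 3 collagen genes rose and 0 fell, where 3.04% of all genes rose and 9.31% fell. The collagen median was -0.31 against -0.24 for all genes, and at an unadjusted p under 0.05 the collagen genes counted 7 higher and 3 lower, where 7.39% of all genes were higher and 26.1% lower. Col6a6, the alternative type VI chain, was at 3.3, 3.52 and 2.83 TPM on D4 and 10.4, 10.5 and 9.8 TPM on D7, with no overlap and a difference of 1.41 ± 0.29 (adjusted p = 0.00909). Col28a1, a collagen known from peripheral nerve, was at 1.03, 0.62 and 1.07 TPM on D4 and 2.68, 2.77 and 3.79 TPM on D7 (1.10 ± 0.20, adjusted p = 0.00525). Col22a1 was at 1.21, 4.83 and 6.06 TPM on D4 and 7.45, 10.1 and 11.8 TPM on D7 (1.24 ± 0.37, adjusted p = 0.0384), and the call was lost without WT D4 replicate 1 (0.73), which held its lowest value. Col15a1 (0.67, adjusted p = 0.0514), Col4a1 (0.52, adjusted p = 0.0812) and Col4a2 (0.45, adjusted p = 0.125) fell short of the threshold.

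From D7 to D14, 26 of 34 collagen genes fell and 0 rose, where 30.9% of all genes fell and 0.923% rose. The collagen median was -1.51 and the median of all genes -0.45, and all 34 collagen differences were below 0. By class, 9 of 11 fibrillar, 4 of 5 basement membrane, 4 of 6 FACIT and 9 of 12 other genes fell. Col1a1 went from 1836, 1282 and 1090 TPM on D7 to 300.2, 439 and 85.2 TPM on D14, all below the D7 libraries (-2.60 ± 0.55, adjusted p = 0.00665, limma). Col12a1 had the largest fall (-2.96 ± 0.65, adjusted p = 0.00761). It was followed by Col1a1 and by Col18a1, which went from 65.4, 42.7 and 48.6 TPM to 8.79, 10.5 and 6.62 TPM (-2.46 ± 0.35, adjusted p = 0.00157). The type IV chains, which had passed in neither earlier step of the injured libraries, fell as well, Col4a1 from 257, 270 and 320 TPM to 121, 117 and 88.9 TPM (-1.37 ± 0.20, adjusted p = 0.0017) and Col4a2 by -1.28 ± 0.20 (adjusted p = 0.00238).

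The count of falls rested in part on single libraries. It was 10 without WT D14 replicate 3, which held the lowest level of the D14 libraries for Col1a1, Col3a1 and Col12a1 and a summed collagen level of 858 TPM, and 15 without WT D7 replicate 1. Without WT D14 replicate 3 the calls of Col1a1 (-1.91), Col3a1 (-1.81) and Col12a1 (-2.47) missed the threshold while the collagen median was -1.42. The summed tendon cell markers of that library were 158 TPM against 513 and 634 TPM in the other WT D14 libraries, and their part in the result was not tested.

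Between D1 and D14, 1 collagen gene was higher on D14 and 3 were lower, where 5.15% of all genes were higher and 40.5% lower. Col6a6 was higher (0.83 ± 0.29, adjusted p = 0.0264), and Col18a1 (-1.20 ± 0.35, adjusted p = 0.0087), Col26a1 (-0.65 ± 0.21, adjusted p = 0.0192) and Col4a1 (-0.55 ± 0.20, adjusted p = 0.0288) were lower. The call of Col6a6 was lost without WT D1 replicate 1 or 2 or WT D14 replicate 1 or 2, and the lower calls went from 3 to 1 without WT D1 replicate 2 or without WT D14 replicate 3. The median of all genes was -0.44 in this comparison and 0.01 after median-of-ratios scaling, under which 5 collagen genes were higher and 1 lower, and the difference of Col4a1 became 0.07. The split was 5 and 0 under quantile normalization and 3 and 1 with the 50 most abundant genes removed. The shares of all genes called under these scalings are not given here, so these splits cannot be set against them. Col1a1 (-0.49 ± 0.55) and Col3a1 (-0.33 ± 0.51) differed from the median of all genes by less than their standard error.

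**Figure D3:**
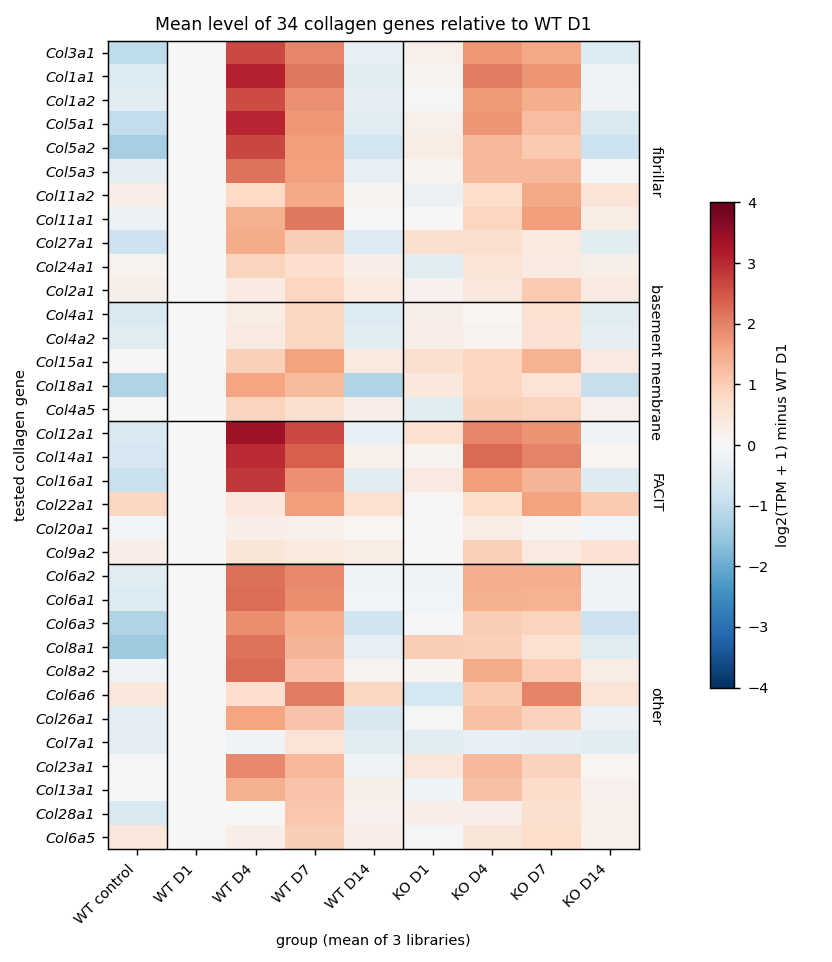
Mean log2(TPM + 1) of the 34 tested collagen genes relative to WT D1 in each group of 3 libraries (columns), grouped by class (rows) and ordered by mean TPM within a class; red is higher and blue lower than WT D1, and WT control is set against WT D1 of its own table. The deepest red is on WT D4 for Col12a1 (3.39), Col1a1 (3.09) and Col5a1 (3.05), and on WT D14 19 of the 34 genes are below WT D1.

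By the day of the highest mean, the tested collagen genes fell into those that peaked on D4, 23 in WT and 24 in KO, and those that peaked on D7, 11 in WT and 10 in KO. On mean TPM as deposited, the day was the same in both genotypes for 33 of 34 genes, the exception being Col7a1, the collagen of anchoring fibrils. The genes with a D7 peak in both were Col4a1, Col4a2, Col15a1, Col22a1, Col28a1, Col6a5, Col6a6, Col11a1, Col11a2 and Col2a1. They thus included the main type IV chains and the junction collagen Col22a1, while the type I, III, V, VI (main chains), VIII, XII and XIV genes peaked on D4. These peak days are a description of the mean TPM, with no test of their difference, and some depend on the scaling. With the 50 most abundant genes removed, or after quantile or median-of-ratios scaling, 17 to 19 genes peaked on D4 in WT and 18 or 19 in KO. Col6a1 and Col6a2 then peaked on D7 in KO under all 3, Col6a2 in WT and Col6a3 in KO with the 50 genes removed, and Col5a3 and Col4a5 also left D4 in KO under all 3. The genotypes thus shared the day for fewer genes. Under all 3 the WT and KO days differed for Col5a3, Col6a1, Col7a1, Col9a2 and Col20a1, and under some of them for other genes. On TPM as deposited, Col15a1 and Col6a6 were the only genes in KO with every peak-day library above all KO libraries of other days.

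Chains that assemble into one molecule need not be transcribed alike, and their ratios were compared as ratios of TPM. The ratio of Col1a1 to Col1a2 in WT rose from 0.727 ± 0.0282 in control and 0.924 ± 0.0135 on D1 to 1.29 ± 0.0516 on D4 (SD, n = 3), then went through 1.13 ± 0.0298 on D7 to 0.841 ± 0.0780 on D14. Every D4 library lay above every D1, D14 and control library in WT. In KO it was highest on D4 too, at 1.19 ± 0.142 (1.27 without KO D4 replicate 2), after 1.03 ± 0.0282 on D1 and before 1.13 ± 0.0543 on D7 and 0.886 ± 0.0120 on D14, and the WT and KO ranges did not overlap on D1. The WT D1 libraries were also deposited in the table of the control comparison, where Col1a1 was 15.4% lower and the ratio was 0.780 ± 0.0147. Within that table the ratio thus went from 0.727 in control to 0.780 on D1. The larger part of the step from control to 0.924 is one between tables. By contrast the ratio of Col4a1 to Col4a2, which share one start region, stayed between 1.48 and 1.77 over the 27 libraries, and that of Col6a1 to Col6a2 between 0.921 and 1.06. The ratio of Col6a3 to Col6a1 went down in WT from 0.926 ± 0.0626 on D1 through 0.715 ± 0.0578 (D4) and 0.701 ± 0.0382 (D7) to 0.571 ± 0.0245 (D14), with D1 above all later libraries. It was 0.596 ± 0.0396 in control, against 0.958 ± 0.0643 for the D1 libraries of the same table.

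**Figure D4:**
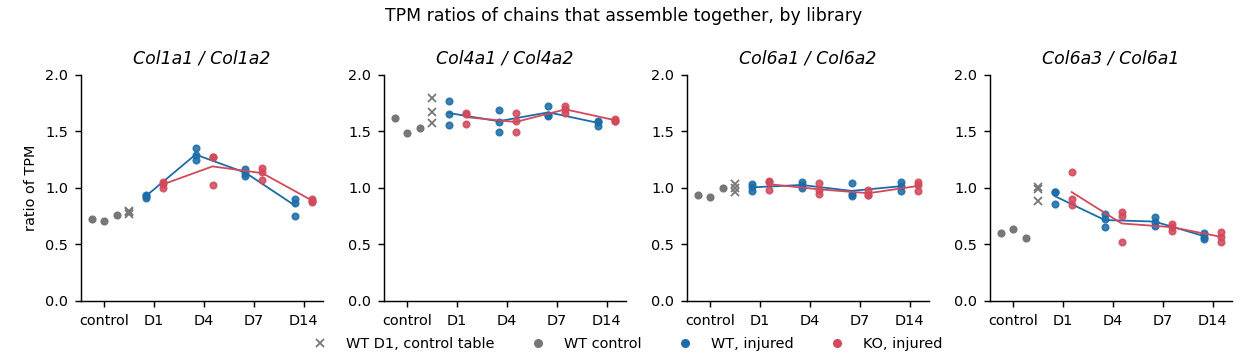
Ratio of TPM between chains that assemble together, in every library by day, for WT control (grey), WT injured (blue) and KO injured (red) muscle; grey crosses are the WT D1 libraries as given in the control table, and lines join the means of 3 libraries. Col1a1 to Col1a2 is highest on D4 (mean 1.29 in WT), Col6a3 to Col6a1 is highest on D1, and the other ratios stay within 1.48 to 1.77 and 0.921 to 1.06.

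The comparison of WT D1 with uninjured control muscle addressed the first response to the toxin. Of 28 tested collagen genes 8 were higher and 1 lower on D1, where 55.4% of all genes were higher and 5.64% lower. Since control and D1 muscle may come from the same mice, the replicate number was also fitted as a block, which gave 8 higher and 1 lower again, although deviations of same-numbered libraries correlated by only 0.0021 to 0.061. The collagen median was 0.46 and the median of all genes 0.66. Setting the libraries to a common median of ratios moved the median of all genes to 0.00 and the collagen median to -0.27, with 2 collagen genes higher and 4 lower. The split was 3 and 4 under quantile normalization and 5 and 3 with the 50 most abundant genes removed, so the direction of the weaker differences depends on the scaling. Of all genes, 21.1% were higher and 21.4% lower under median-of-ratios scaling. These shares were 19.6% and 20.5% under quantile normalization and 30.8% and 12.3% with the 50 genes removed. The largest differences were those of Col8a1, at 1.63, 1.59 and 2.35 TPM in control and 10.9, 11.1 and 2.06 TPM on D1 (1.42 ± 0.50, adjusted p = 0.0356), Col5a2 (1.32 ± 0.31, adjusted p = 0.00763) and Col6a3 (1.21 ± 0.22, adjusted p = 0.00315). The call of Col8a1 was lost without any of 5 of the 6 libraries. Col18a1 (1.21 ± 0.22), Col3a1 (1.01 ± 0.22), Col5a1 (0.97 ± 0.24), Col16a1 (0.90 ± 0.33) and Col4a1 (0.60 ± 0.22) were also higher. Col22a1 was lower, at 5.77, 4.15 and 5.22 TPM in control and 2.63, 1.95 and 2.5 TPM on D1, with no overlap (-0.84 ± 0.21, adjusted p = 0.00991). Col1a1 was at 231, 115 and 231 TPM in control and did not pass (0.54 ± 0.41, adjusted p = 0.264), nor did Col12a1 (0.62, adjusted p = 0.27). Between 5 and 16 genes were higher when single libraries were left out, the latter without WT D1 replicate 3, whose summed macrophage markers were the lowest of that group.

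In KO muscle from D1 to D4, 15 collagen genes rose and 0 fell, where 7.18% of all genes rose and 12.2% fell. The collagen median was 1.01 and that of all genes -0.15. Col14a1 (2.13 ± 0.51, adjusted p = 0.00841), Col1a1 (1.97 ± 0.55, adjusted p = 0.0199) and Col1a2 (1.77 ± 0.50, adjusted p = 0.0214) had the largest called differences. Col1a1 was at 424, 313 and 294 TPM on KO D1 and at 2610, 585 and 1541 TPM on KO D4, all above D1, with replicate 2 nearest to it. Col6a6 had the lowest adjusted p, with 0.5, 0.72 and 0.67 TPM on D1 and 5.17, 2.86 and 6.02 TPM on D4 (1.76 ± 0.29, adjusted p = 0.000758). Without KO D4 replicate 2 the differences were 2.85 for Col14a1, 2.56 for Col1a1, 2.26 for Col1a2 and 2.02 for Col6a6. Col5a1 (2.40) and Col3a1 (2.32) were then larger than Col1a2. The count was 19 without KO D4 replicate 2, 7 without KO D1 replicate 3, and 8 without KO D4 replicate 1 or without KO D4 replicate 3. From D4 to D7, 0 of 34 passed in KO (limma), where 0% of all genes passed. At an unadjusted p under 0.05 the counts were 6 higher and 1 lower, where 2.21% of all genes were higher and 7.69% lower. This split depended on KO D4 replicate 2. Without it Col22a1 (1.40) and Col2a1 (0.95) passed as higher and Col5a1 (-1.37) and Col13a1 (-0.81) as lower. Of all genes, 0.67% then passed as higher and 8.12% as lower. At an unadjusted p under 0.05, Col3a1 (-0.97) and Col5a2 (-1.18) were then lower and Col4a1 (0.58) and Col15a1 (0.61) higher. Other collagen genes passed this threshold in both directions. At that threshold 3.02% of all genes were higher and 27.6% lower. From D7 to D14, 6 fell and 0 rose, where 0.477% of all genes fell and 0.0827% rose, and 26 were lower at an unadjusted p under 0.05, where 16.1% of all genes were. The 6 were Col26a1 (-1.15 ± 0.21, adjusted p = 0.0186), Col4a1 (-1.03 ± 0.20), Col6a6 (-1.47 ± 0.29), Col4a2 (-0.94 ± 0.20), Col15a1 (-1.03 ± 0.22) and Col6a2 (-1.62 ± 0.35). This count was 18 without KO D4 replicate 2 or KO D7 replicate 2, and 0 without KO D7 replicate 1, KO D7 replicate 3 or KO D14 replicate 1. KO D4 replicate 2 is in neither group, so leaving it out changes the spread shared by all groups and not these differences. Between D1 and D14 in KO, 3 were higher, namely Col6a6 (1.21), Col22a1 (1.00) and Col9a2 (0.61), and 5 were lower, namely Col18a1 (-1.35), Col4a1 (-0.65), Col4a2 (-0.63), Col27a1 (-1.12) and Col8a1 (-1.47), where 8.43% of all genes were higher and 42.8% lower. That split was 7 and 2 under each of the 3 other scalings, for which the shares of all genes are not given here. The higher count was 1 without KO D1 replicate 1, KO D1 replicate 3, KO D14 replicate 2 or KO D14 replicate 3, and the lower count was 1 without KO D14 replicate 1.

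The question of the genotype comparison was whether collagen expression differed between KO and WT muscle on any day. On each of the days, 0 of 34 collagen genes passed (limma, adjusted p under 0.05), where 0.00636% of all genes were called on D1 and 0% later. The average over days, the genotype by day F test and each genotype by step interaction also gave 0 (0.00636% of all genes for the average and 0% for the others). At an unadjusted p under 0.05 the F test gave 3 collagen genes (7.65% of all genes), and the steps from D4 to D7, from D7 to D14 and from D1 to D14 differed between genotypes for 1 each (2.83%, 3.09% and 3.52% of all genes). With library quality weights, under which KO D4 replicate 2 counted least, 1 collagen gene was higher in KO on D4 (Col6a6, 0.63), 2 were higher (Col15a1, 0.48, and Col23a1, 0.50) and 1 lower (Col24a1, -0.67) on D1, and the step from D1 to D4 differed for 10, of which 9 were smaller in KO. These weights rested each D1 and D4 group largely on 1 library. On D1 they were 4.92 for WT replicate 1 against 0.314 and 0.282, and 4.04 for KO replicate 1 against 0.585 and 0.620. On D4 they were 3.85 for WT replicate 2 against 0.235 and 0.649, and 4.06 for KO replicate 3 against 0.559 and 0.116. Under the same weights 2.47% of all genes were higher and 7.07% lower on D4, 12.9% higher and 4.48% lower on D1, and the step was smaller for 25.3% and larger for 5.62%, so the collagen share with a smaller step was near that of all genes. The 9 were Col12a1, Col16a1, Col23a1, Col27a1, Col4a2, Col5a1, Col5a2, Col5a3 and Col8a1, and Col6a6 was the one with the larger step in KO.

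On D4, 26 of 34 collagen genes had a lower mean log2(TPM + 1) in KO, with a median of -0.59 against -0.28 for all genes. At an unadjusted p under 0.05, 10 were lower and 0 higher, where 19.1% of all genes were lower. Col5a1 had the lowest p, at 469, 369 and 455 TPM in WT and 422, 55.9 and 233 TPM in KO, so the groups overlapped and replicate 2 was the lowest by far (-1.27 ± 0.52, adjusted p = 0.212, limma). Col5a2 was at 324, 328 and 341 TPM in WT and 318, 36.0 and 184 TPM in KO, which did not overlap (-1.35 ± 0.58, adjusted p = 0.212). Col23a1 was at 7.23, 8.08 and 6.82 TPM in WT and 5.85, 2.71 and 5.28 TPM in KO, also without overlap (-0.62 ± 0.26, adjusted p = 0.212). Without KO D4 replicate 2 the collagen median was -0.28 against -0.11 for all genes, 0 collagen genes were lower and 1 higher at an unadjusted p under 0.05 (Col6a6, 0.65), where 2.69% of all genes were lower and 1.42% higher, and the differences were -0.45 for Col5a1, -0.45 for Col5a2 and -0.35 for Col23a1. In that library the summed collagen level was 2733 TPM against 11171 and 7209 TPM in the other KO D4 libraries, the summed regenerating myoblast markers were 40.0 against 605 and 652 TPM, and the summed mature myofibre markers 75265 against 38033 and 66097 TPM. Their part in the result was not tested. With replicate 2 included, 4 collagen genes were lower in every KO than every WT library on D4 (Col23a1, Col26a1, Col4a1 and Col5a2) and 0 were higher in every one. Of all genes, 11.2% were lower and 2.77% higher in this way.

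**Figure D5:**
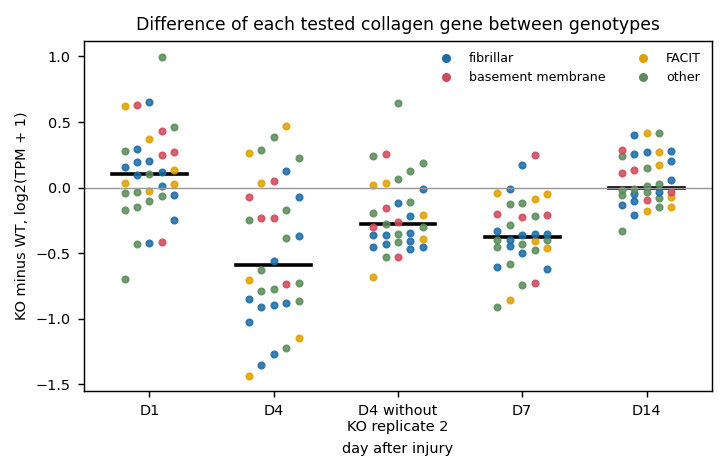
Difference of each tested collagen gene between genotypes (KO minus WT, log2(TPM + 1)) on each day, with D4 also shown without KO replicate 2; points are genes coloured by class and the black bar is their median. The median is -0.59 on D4, -0.28 on D4 without that library, -0.38 on D7 and near 0 on D14, and 0 of 34 genes passed on any day.

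On D7, 32 of 34 collagen genes had a lower mean log2(TPM + 1) in KO, with a median of -0.38 against -0.19 for all genes, and 3 were lower at an unadjusted p under 0.05, where 2.58% of all genes were. Col28a1 was at 2.68, 2.77 and 3.79 TPM in WT and 2.03, 1.54 and 2.53 TPM in KO (-0.43 ± 0.20, adjusted p = 0.776, limma). Col7a1 (-0.91 ± 0.43) and Col18a1 (-0.73 ± 0.35) had the same adjusted p, and for all 3 genes no KO library reached the lowest WT library. Col13a1 was also lower in every KO library and Col4a5 higher in every one, where 14.6% of all genes were lower and 1.85% higher in this way. Without KO D7 replicate 2, whose summed collagen level was 3052 TPM against 7752 and 6270 TPM and whose summed tendon cell markers were 475 TPM against 1407 and 1100 TPM, the collagen median was -0.09, 0 genes were below an unadjusted p of 0.05, and Col18a1 differed by -0.43.

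On D1, 1 collagen gene was higher and 1 lower at an unadjusted p under 0.05, where 5.38% of all genes passed in either direction. Col15a1 was at 51.3, 49.7 and 29.9 TPM in WT and 71.5, 61.0 and 66.1 TPM in KO, all KO libraries above all WT libraries (0.63 ± 0.22, unadjusted p = 0.0099, adjusted p = 0.873, limma). Col6a6 was lower in each KO library (-0.70 ± 0.29), at 0.91, 1 and 3.83 TPM in WT against 0.5, 0.72 and 0.67 TPM in KO, and differed by -0.26 without WT D1 replicate 3. Col27a1 (0.66), Col8a1 (1.00) and Col28a1 (0.28) were also higher in every KO library, where 3.33% of all genes were higher and 3.38% lower in this way. On D14 the collagen median was 0.00, with 17 genes on either side, and 0 genes were below an unadjusted p of 0.05, where 2.06% of all genes were. The lowest p were those of Col26a1 (a difference of 0.42), Col9a2 (0.27) and Col22a1 (0.42). Col9a2 was the gene of this set with every KO library above every WT library, where 7.37% of all genes were higher in this way and 1.04% lower. Averaged over days, 28 of 34 collagen genes had a lower mean log2(TPM + 1) in KO, with a median of -0.19 against -0.07 for all genes and 0 at an unadjusted p under 0.05, where 3.54% of all genes were.

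The size of the D4 minus D1 step was compared between genotypes directly. The collagen median of the difference in steps (KO minus WT) was -0.63 against -0.38 for all genes, and at an unadjusted p under 0.05 the step was smaller in KO for 6 genes and larger for 1, where it was smaller for 18.8% of all genes and larger for 4.52%. Col23a1 (-1.08, unadjusted p = 0.00879), Col27a1 (-1.50, unadjusted p = 0.0102) and Col8a1 (-2.22, unadjusted p = 0.0132) had the lowest p, all with an adjusted p of 0.204 (limma). Without KO D4 replicate 2 these were -0.81, -1.01 and -1.53 (unadjusted p = 0.033, 0.0391 and 0.0521), the median was -0.35 against -0.21 for all genes, and the step was smaller for 3 genes and larger for 1 at an unadjusted p under 0.05, where it was smaller for 5.67% of all genes and larger for 3.09%. Col8a1 was at 18.6, 11.8 and 13.0 TPM on KO D1, above the WT D1 libraries, and at 29.8, 4.66 and 17.2 TPM on KO D4 against 39.8, 33.4 and 27.6 TPM on WT D4.

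Collagen chains pass through a line of enzymes before they form fibrils: prolyl and lysyl hydroxylases in the endoplasmic reticulum, chaperones, proteases that trim the ends outside the cell and lysyl oxidases that cross-link the fibrils, and cells sense collagen through integrins and discoidin domain receptors. Of 40 such genes listed, 39 were tested and Tll2 stayed under 1 TPM. From D1 to D4 in WT, 21 rose and 0 fell, where 14.6% of all genes rose and 5.27% fell, with a median of 1.18 against 0.17 for all genes. The largest rises were those of P4ha3, a prolyl hydroxylase subunit, at 2.98, 4.23 and 0.45 TPM on D1 and 29.4, 21.04 and 23.0 TPM on D4 (3.02 ± 0.79, adjusted p = 0.0105), the lysyl oxidase Loxl2 (2.25 ± 0.47, adjusted p = 0.00216) and the collagen receptor integrin Itga11 (2.24 ± 0.37, adjusted p = 0.000446). From D4 to D7, the basement membrane collagen receptor Itga1 rose (0.89 ± 0.25, adjusted p = 0.0318), and P4hb (-1.17 ± 0.32), Colgalt1 (-0.90 ± 0.29) and Ddr1 (-0.78 ± 0.24) fell, which were the 4 genes called, where 3.04% of all genes rose and 9.31% fell. This count depended on a library outside the compared groups. Without KO D4 replicate 2, 2 rose and 12 fell, where 4.5% of all genes rose and 18.1% fell. The pathway median was -0.60 in both fits. With library quality weights 4 rose and 25 fell, where 10.6% of all genes rose and 39.3% fell. From D7 to D14, 30 fell and 0 rose, where 30.9% of all genes fell (median -1.27 against -0.45 for all genes), with the largest falls in P4ha3 (-2.53 ± 0.79), Lox (-2.41 ± 0.70) and Fkbp10 (-2.28 ± 0.53), a chaperone of collagen cross-linking.

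Against control on D1, 23 of the 34 such genes tested were higher and 1 lower, where 55.4% of all genes were higher and 5.64% lower. The split was 13 and 4 under median-of-ratios scaling or quantile normalization and 19 and 3, of 37 then tested, with the 50 most abundant genes removed. Of all genes, 21.1% were higher and 21.4% lower under the first, 19.6% and 20.5% under the second, and 30.8% and 12.3% under the last. Lox was at 5.36, 4.56 and 7.43 TPM in control and 40.7, 74.5 and 18.0 TPM on D1 in the same table (2.55 ± 0.45, adjusted p = 0.003), followed by Loxl3 (2.35 ± 0.51) and the lysyl hydroxylase Plod2 (2.13 ± 0.41). Colgalt2, a collagen galactosyltransferase, was the one lower (-1.07 ± 0.26, adjusted p = 0.00863). The median of these genes was 1.00 against 0.66 for all genes in that comparison. In KO, 3 rose from D1 to D4, where 7.18% of all genes rose, and 10 did without KO D4 replicate 2, where 9.28% of all genes did. From D7 to D14 in KO, 0 fell (limma), where 0.477% of all genes fell. At an unadjusted p under 0.05, 25 were lower, where 16.1% of all genes were. Without KO D4 replicate 2, 15 fell, where 4.63% of all genes did. That library is in neither group, and the pathway median was -0.89 with and without it. Between genotypes 0 passed on any day (limma), and on D4 18 were lower and 1 higher at an unadjusted p under 0.05, where 19.1% of all genes were lower. Without KO D4 replicate 2 these counts were 0 and 0, where 2.69% of all genes were lower and 1.42% higher. With library quality weights 3 pathway genes were higher in KO on D1, where 12.9% of all genes were. On D4, 1 was higher and 7 lower, where 2.47% of all genes were higher and 7.07% lower.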

How the data were processed

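Muscle RNA from 27 mouse libraries was sequenced as paired-end reads after preparation with the SMARTER mRNA-Seq kit. The authors deposited gene tables of TPM values, one for the 24 injured libraries and one for the control and WT D1 libraries. The aligner and counting tool were not given in the sources used here, and the submitters' processing notes name mm10. The tables were normalized separately, so each test stayed within a table, and the authors' columns of group means were left out.

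Values were taken as log2(TPM + 1), genes with at least 1 TPM in at least 3 libraries were kept, and limma 3.58.1 (R 4.3.3) was fitted across all kept genes with one mean per group and a trended variance. The spread of each gene was shared by all groups of a table. Leaving out a library of another group thus changes p-values and counts but not the difference itself. Two-sided p-values were adjusted by Benjamini-Hochberg over all genes tested and called under 0.05. The fold changes of genes with few TPM are understated on this scale. Steps that share a group (D4 minus D1 and D7 minus D4) are not independent. P-values measure the spread between these libraries. The steps were tested on simulated data. Python 3.11.15 with pandas 2.3.3 and numpy 2.4.6 computed sums and ratios, and gene positions came from GENCODE M21.

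The collagen classes, the pathway list and the marker lists were chosen with earlier results of these data known. Named with values were the 4 members of each class with the highest mean TPM, up to 3 called members with the largest difference in each direction of a comparison, all members of short lists of calls, the 3 members with the lowest p on each day between genotypes, the chain-ratio members, the pathway genes by the same rule of 3, and Gsdme. A few other members were named after their values were seen, where groups did not overlap or to complete a class. Another pseudocount, filters, scalings, library weights, a replicate block and leaving out libraries were tried, with collagen counts over the members tested in injured muscle. Some settings for the pathway genes and the day of the highest mean were added after seeing the data.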

Additional observations from a re-analysis of the deposited data

How the results depend on the processing

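Depth limits genes near 1 TPM, such as Col9a2, Col2a1 and Col6a5, and cannot be judged from TPM. The number of collagen genes called from D1 to D4 in WT ran from 17 to 27 over all settings, with 0 lower, and no collagen gene passed between genotypes except with library weights (0.116 for KO D4 replicate 2 to 4.92 for WT D1 replicate 1, estimated gene by gene since the default estimator did not converge). The cause of the changes below was not tested.

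With the weights, KO minus WT gave 2 higher and 1 lower on D1, 1 higher on D4, and 1 higher and 9 lower for the D4 minus D1 step, where 12.9% and 4.48%, 2.47%, and 5.62% and 25.3% of all genes were called in those directions. In WT, D7 minus D4 gave 6 higher under each of the 3 other scalings (median of ratios, quantile, 50 most abundant genes removed), 11 higher and 14 lower with weights, and 2 lower with only the compared groups fitted. WT D14 minus D1 gave 0 higher with no filter or with only the compared groups, 5 higher under median-of-ratios scaling (1 lower) and quantile normalization (0 lower), 3 higher and 1 lower with the 50 genes removed, and 4 higher and 8 lower with weights. There Col4a1 changed sign to 0.0664 under median-of-ratios scaling, the one sign change of a called gene. KO D4 minus D1 gave 0 higher with only the compared groups (16 at an unadjusted p under 0.05). KO D7 minus D4 gave 9 higher and 3 lower with weights. KO D14 minus D7 gave 2 lower with no filter, 12 under median-of-ratios scaling or quantile normalization, 29 with weights, 3 with the replicate block and 0 with only the compared groups. KO D14 minus D1 gave 1 higher with no filter, 7 higher and 2 lower under the 3 scalings, 7 higher and 12 lower with weights, and 5 higher and 11 lower with only the compared groups. WT D1 minus control gave 2, 3 and 5 higher under median-of-ratios, quantile and 50-gene settings with 4, 4 and 3 lower, 14 higher and 3 lower with weights, and 0 lower when 5 TPM was required. With weights, 10.6% of all genes were higher and 39.3% lower for WT D7 minus D4, and 9.1% and 50.3% for WT D14 minus D1. In KO these shares were 7.28% and 26.3% for D7 minus D4 and 13.3% and 55.6% for D14 minus D1. For KO D14 minus D7, 36.8% were lower. For WT D1 minus control they were 21.1% and 21.4%, 19.6% and 20.5%, and 30.8% and 12.3% under the 3 scalings in that order. For the other counts of this paragraph the shares of all genes are not given, so those counts cannot be set against all genes.

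With the 50 most abundant genes removed, the fibrillar sum (TPM) was 1878 in control, 2246 on WT D1, 2286 on KO D1, 12652 on WT D4, 8780 on KO D4 (against 5532 before), 9190.1 on WT D7, 8145 on KO D7, 2673 on WT D14 and 2321 on KO D14. The basement membrane sum was 546 in control, 540.4 on WT D1, 645 on KO D1, 679 on WT D4, 678 on KO D4, 1167 on WT D7, 1077 on KO D7, 583 on WT D14 and 601 on KO D14. The FACIT sum was 77.6 in control, 82.7 on WT D1, 99.2 on KO D1, 545 on WT D4, 369 on KO D4 (against 234 before), 436 on WT D7, 347 on KO D7, 113 on WT D14 and 103 on KO D14. The sum of the other class was 465 in control, 521 on WT D1, 476 on KO D1, 1901 on WT D4, 1403 on KO D4, 1921 on WT D7, 1542 on KO D7, 615 on WT D14 and 562 on KO D14.

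Leaving out single libraries gave 2 to 5 higher and 0 to 1 lower for WT D7 minus D4 (5 without WT D1 replicate 3, 1 without KO D4 replicate 2), 10 to 27 lower for WT D14 minus D7, 0 to 1 higher and 1 to 4 lower for WT D14 minus D1, 7 to 19 higher for KO D4 minus D1, 0 to 2 higher and 0 to 2 lower for KO D7 minus D4 (both 2 without KO D4 replicate 2), 0 to 18 lower for KO D14 minus D7, 1 to 4 higher and 1 to 7 lower for KO D14 minus D1, and 5 to 16 higher and 1 to 2 lower for WT D1 minus control. Leaving out KO D4 replicate 2 and KO D7 replicate 2 together, chosen after seeing the data, gave 4 lower for WT D7 minus D4, 2 higher for KO D7 minus D4, 24 lower for KO D14 minus D7 and 10 lower for KO D14 minus D1. Deviations of same-numbered WT and KO libraries correlated from -0.40 to 0.39, above 0.1 in 4 of 12 pairs, and 6 of 12 WT libraries correlated best with their own number. With 3 libraries per group these values cannot show whether replicate numbers pair the samples. The replicate block moved no other count by more than 1.5 times.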
